A study of Mus musculus with 4 samples.

Results

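The genes described here encode the proteins of the cytosolic ribosome. They are the protein-coding genes whose symbol is Rpl or Rps followed by a number, together with Rplp0, Rplp1, Rplp2 and Rpsa. Kinase genes of the Rps6k family, pseudogenes and mitochondrial ribosomal proteins were left out. The rule found 86 of the 35275 rows of the deposited table, 52 of the large subunit (Rpl) and 34 of the small subunit (Rps). Of these, 77 encode core proteins (46 large, 31 small) and 8 encode paralogs of a core protein. The remaining gene, Rps19bp1, encodes a protein that binds Rps19 and is no subunit. Fau and Rack1 also encode subunits and have symbols outside the rule.

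RNA was sequenced from mouse double-negative regulatory T cells, T cells with an αβ receptor that lack CD4 and CD8 and can restrain other immune cells. They were converted from naive CD4 T cells of C57BL/6 mice. A sort then kept cells with CD3 and TCRαβ and removed cells with CD4, CD8 or NK markers. There were 2 libraries from wild-type mice and 2 from OX40-knockout mice of the same strain, named here by genotype and label number. The labels give no age and no further treatment and name no deleted exon. They also do not state that replicates are different animals or cultures, so the p-values speak only of the spread among the 4 libraries, which may be technical. Tnfrsf4, which encodes OX40, was at 18.2 and 12.3 RPKM in wild-type 1 and 2 and at 12.1 and 9.38 RPKM in OX40-knockout 1 and 2 (RPKM, reads divided by the length of the transcript and the total of the library). Its log2 difference was -0.46 with a standard error of 0.23 (limma, adjusted p = 0.975). A gene-level value can hold reads from exons outside a deletion, so it does not check the genotype, and OX40-knockout stands throughout for the label.

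The ribosome translates mRNA into protein. Its small subunit reads the message, its large subunit joins the amino acids, and nearly all core proteins are needed in equal number. T cells that leave rest and divide build many ribosomes, under control of MYC and of the kinase mTORC1. Most mRNAs of ribosomal proteins begin with a C followed by a run of pyrimidines, the terminal oligopyrimidine (TOP) motif, through which LARP1 and mTORC1 control their translation. A shortage of single ribosomal proteins can free Rpl5 and Rpl11 to bind Mdm2 and so stabilise p53.

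Promoter windows of RefSeq (build GRCm38.p6), from 250 bases before to 50 bases after the annotated start, matched 66 of the 86 genes by symbol. The windows below show how much the start site varies among genes that the results return to. They are 30 bases long, from 20 before the start to 10 from the start on. Capitals mark a run of at least 8 pyrimidines (C or T) that touches the 5 bases on either side of the start. A gene with no such run is all in lower case.
Rpl38 (chr11:114668560-114668589, plus strand): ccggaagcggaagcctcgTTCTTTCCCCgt
Rps6 (chr4:86857358-86857387, minus strand): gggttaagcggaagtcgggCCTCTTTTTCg
Rps27 (chr3:90213639-90213668, minus strand): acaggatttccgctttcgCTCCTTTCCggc
Rps27rt (chr9:114982730-114982759, minus strand): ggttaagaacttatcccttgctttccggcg
Rpl22 (chr4:152325706-152325735, plus strand): ccgacttcgccctgggaaaagcaatagctg
Rpl22l1 (chr3:28805488-28805517, plus strand): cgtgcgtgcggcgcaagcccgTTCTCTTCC
Rpl35 (chr2:39005122-39005151, minus strand): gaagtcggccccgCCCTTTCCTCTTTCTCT
Rplp0 (chr5:115559447-115559476, plus strand): acgtcgtcttcgggtttcgaggaccgcctg
Rpl13a (chr7:45128736-45128765, minus strand): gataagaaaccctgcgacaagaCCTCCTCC
Rpl24 (chr16:55966255-55966284, plus strand): taggaagaaagctgttgctaggaaacagac

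A run of at least 8 pyrimidines at the start was found in 21 of the 66 windows (31.8%) and in 9.63% of the 27025 promoter windows of all symbols. The run was in 12 of 40 large-subunit and 9 of 26 small-subunit windows. Within 50 bases of the start, 53 of 66 windows (80.3%) had such a run, against 37.7% of all windows. The start base itself was C in 22 of 66 (33.3%), against 16.2% of all. CCGGAAG, letters of an ETS-type site, was found on either strand of the 300-base window in 25 of 66 genes (37.9%) and in 9.12% of all windows. ATGGCGG, letters of a YY1-type site, was found on either strand in 10 of 66 genes (15.2%) and in 4.19% of all. The letters of the 2 motifs differ, and a window could hold both. These matches describe letters in annotated windows, whose starts may be off by some bases. The median GC content of the windows was 57.5% for the 66 genes and 52.7% for all symbols. The part of base content in the shares above was not tested.

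The libraries held 23215528, 24395743, 22220888 and 22571186 reads (wild-type 1 and 2, OX40-knockout 1 and 2). The wild-type libraries were the most alike over the ribosomal protein genes, and OX40-knockout 1 stood apart from the other 3. Over 83 tested genes the median absolute log2 difference was 0.04 between the wild-type libraries and 0.05 and 0.07 between OX40-knockout 2 and each of them. It was from 0.28 to 0.31 between OX40-knockout 1 and each of the other libraries. OX40-knockout 1 stood apart over all 11625 genes tested as well. There the median absolute difference was 0.10 between the wild-type libraries and 0.25 between the knockout libraries. Of all genes tested, 4958 were lowest and 4284 highest in OX40-knockout 1. The order of levels was nearly the same everywhere, with Spearman's rho between libraries from 0.948 to 0.998 over the same 83 genes, which share each library's depth. The αβ T cell markers Cd3d, Cd3e, Cd3g, Cd247, Trac, Trbc1, Trbc2 and Thy1 summed to between 2909 and 3244 RPKM in every library. The coreceptor genes Cd4, Cd8a and Cd8b1 summed to 14.6, 14.9, 31.1 and 13.1 RPKM, highest in OX40-knockout 1. The NK genes Klrb1c, Ncr1, Klra8 and Klre1 summed to 118, 214, 53.2 and 206 RPKM, lowest in OX40-knockout 1. In both genotypes each of these NK genes was lower in the library numbered 1 than in either library numbered 2. Ncr1 was at 0.408, 7.93, 0.183 and 7.49 RPKM and Klra8 at 0.475, 11.4, 0.382 and 8.80 RPKM. Foxp3 did not exceed 0.144 RPKM, the γδ T cell gene Sox13 did not exceed 1.01 RPKM, and the B cell list (4 genes) summed to at most 1.03 RPKM with Ms4a1 at 0. The myeloid list (4 genes) summed to between 2.03 and 6.68 RPKM, the erythroid list (3) to between 1.22 and 5.07, and the stromal list (3) to between 31.7 and 112.7, nearly all of it Pecam1, which T cells also express. The part of other cells in the results below was not tested.

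**Figure D1:**
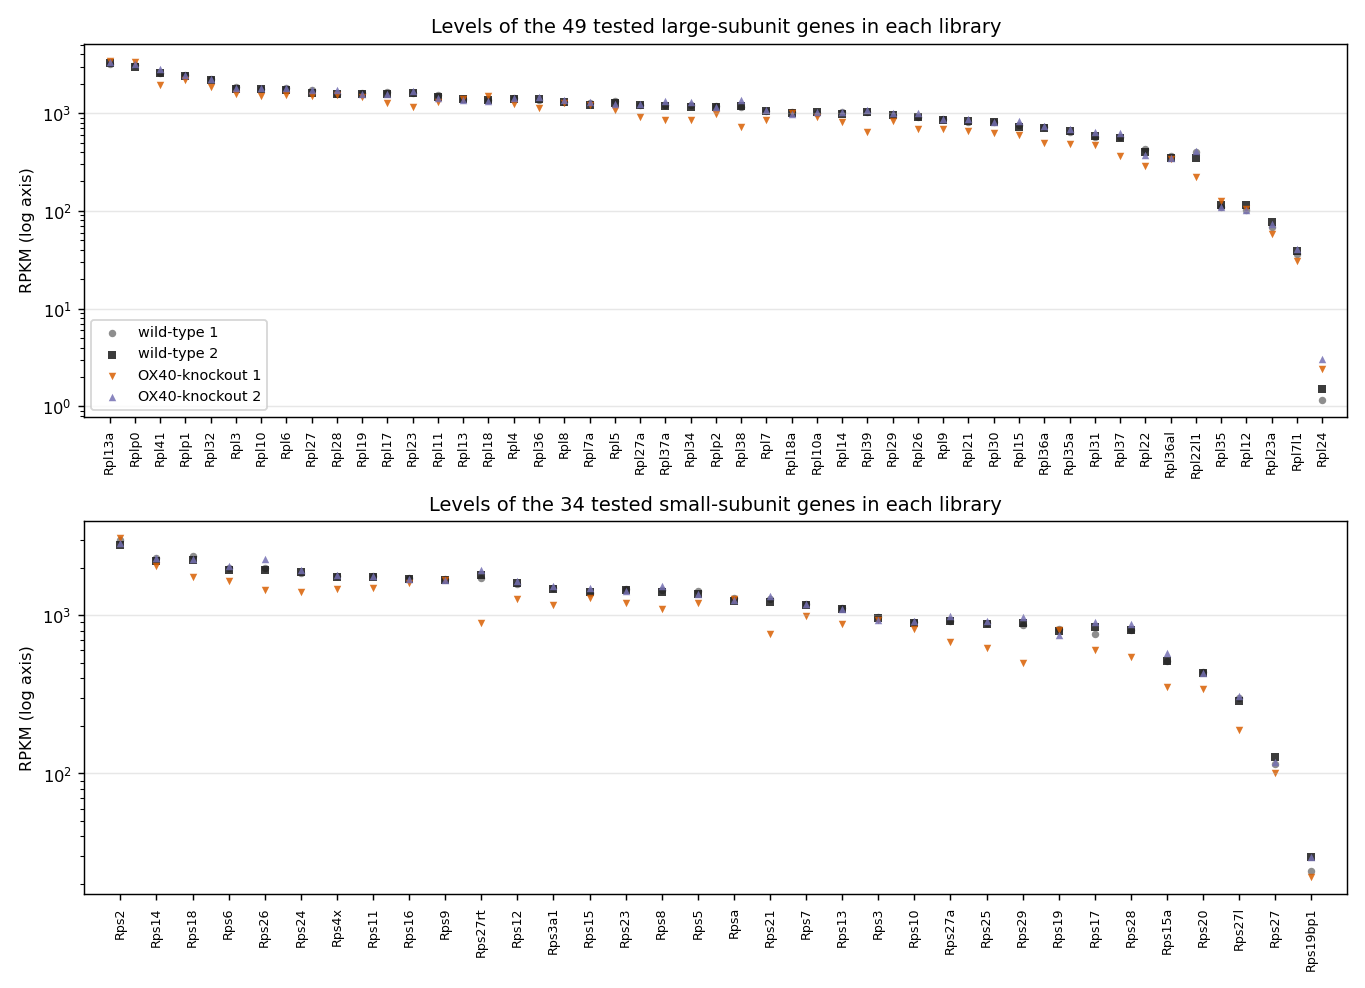
RPKM (log axis) of the 49 tested large-subunit genes (top) and the 34 tested small-subunit genes (bottom) in each of the 4 libraries, ordered by mean over the libraries. Most core genes lie near or above 400 RPKM in all libraries, and the marks of OX40-knockout 1 lie below the others for most genes.

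Most core genes were expressed at a high and similar level. Of the 77 core genes, 71 had a mean of at least 400 RPKM over the 4 libraries and 48 had a mean of at least 1000. The median was 1131 RPKM over the 46 core large-subunit genes and 1336 RPKM over the 31 core small-subunit genes. Between the quartiles of all 77 the level differed 1.93-fold. RPKM divides by transcript length, and when the same reads were divided by coding length the quartiles lay 1.58-fold apart. The length behind the value was a mean over annotated transcripts for many genes, and in 10 genes the recovered length was shorter than the coding sequence. A recovered length is a lower bound, since a common factor may be missing, and the levels by coding length share this limit. Levels of different genes can therefore be off by the length used, while the same gene is compared between libraries on 1 length.

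Among large-subunit genes Rpl13a was highest. It encodes a core protein that can also leave the ribosome to silence inflammatory mRNAs in the GAIT complex. Its level was 3217 and 3253 RPKM in wild-type and 3420 and 3346 RPKM in OX40-knockout 1 and 2. Exons of Gm45713 lie over 97.5% of its coding sequence, and that gene was listed at 48.6 to 61.4 RPKM. Rplp0, the base of the acidic stalk that recruits elongation factors, was next, at 3096 and 2966 RPKM in wild-type and 3369 and 3149 RPKM in OX40-knockout. Both genes were highest in OX40-knockout 1, and their groups did not overlap. Rpl41, the smallest ribosomal protein, was at 2550, 2586, 1918 and 2799 RPKM in wild-type 1 and 2 and OX40-knockout 1 and 2. Here OX40-knockout 1 was lowest and OX40-knockout 2 highest.

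In the small subunit Rps2, which sits near the mRNA entry channel, was highest with 2996, 2782, 3054 and 2853 RPKM in the same order. Rps14, whose human counterpart is lost in the 5q- form of myelodysplasia, was at 2313, 2210, 2042 and 2282 RPKM. Rps18, a protein of the head of the subunit, was at 2349, 2232, 1755 and 2279 RPKM. In the latter 2 genes OX40-knockout 1 was lowest and the other 3 libraries were close together. Rps6, the target of the S6 kinases downstream of mTORC1, was at 1992, 1941, 1642 and 2047 RPKM.

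The core genes at the bottom of the order were few, and most overlapped another gene or had an identical copy. An overlap was not particular to them, since 39 of the 86 genes shared exon sequence with another gene. The 5 core genes under 120 RPKM were Rpl35, Rps27, Rpl12, Rpl23a and Rpl24. Rpl24, a protein at the bridge between the subunits, was at 1.16, 1.50, 2.43 and 3.07 RPKM, from 14, 19, 28 and 36 reads. The exact 95% Poisson intervals, which cover counting error only, ran from 0.635 to 1.95, from 0.903 to 2.34, from 1.61 to 3.51 and from 2.15 to 4.25 RPKM. Exons of Gm28037, listed at 0 in all libraries, cover 83.4% of the Rpl24 coding sequence. Exons of other genes lie over 55.3% of the coding sequence of Rpl23a (69.2, 77.8, 58.2 and 74.0 RPKM) and 28.5% of that of Rpl35 (111, 116, 126 and 110 RPKM). Rpl12, at 103, 114, 105 and 103 RPKM, has an exon overlap with Lrsam1 outside its coding sequence. Rpl13a, Rps10 and the paralog Rpl36al were overlapped too (97.5%, 92.1% and 95.3%), at 3217 to 3420, 815 to 925 and 336 to 362 RPKM. The part of overlap in these levels was not tested. How reads that match several genes were counted is not stated, so the values of these genes are uncertain.

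Near-identical copies are common in this family. Of the 86 genes, 75 had at least 1 row elsewhere in the table with 95% or more identity over at least 80% of the coding sequence. There were 434 such copies, and 62 of them had a mean of at least 1 RPKM. Rps27 and Rps27rt have identical coding sequences, so their reads may be split by the few bases that differ outside it. Rps27 was at 115, 127, 100 and 117 RPKM and Rps27rt at 1726, 1782, 890 and 1933 RPKM in wild-type 1 and 2 and OX40-knockout 1 and 2. Their sum was 1841, 1909, 990 and 2051 RPKM, which puts the pair among the higher small-subunit genes. In OX40-knockout 1 Rps27rt was 8.87 times as high as Rps27, against 14.1 to 16.5 times in the other 3 libraries.

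The ribosomal protein genes as a whole held less of the RNA in OX40-knockout 1 than in the other 3 libraries. They made up 15.0% and 14.8% of the summed RPKM in wild-type 1 and 2, 12.9% in OX40-knockout 1 and 15.1% in OX40-knockout 2. The group means were 14.9% ± 0.185 (SD, n = 2) in wild-type and 14.0% ± 1.55 (SD, n = 2) in OX40-knockout. OX40-knockout 2 lay above both wild-type libraries, so the groups overlapped and the difference of the means was smaller than the spread within the knockout group. As shares of reads, at least 7.47%, 7.32%, 6.37% and 7.59% of the library totals belonged to these genes in the same order. With 2 libraries a group, the smallest two-sided p an exact permutation test can reach is 0.333. In bulk RNA, fewer cells with a high content and less RNA per cell cannot be told apart.

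**Figure D2:**
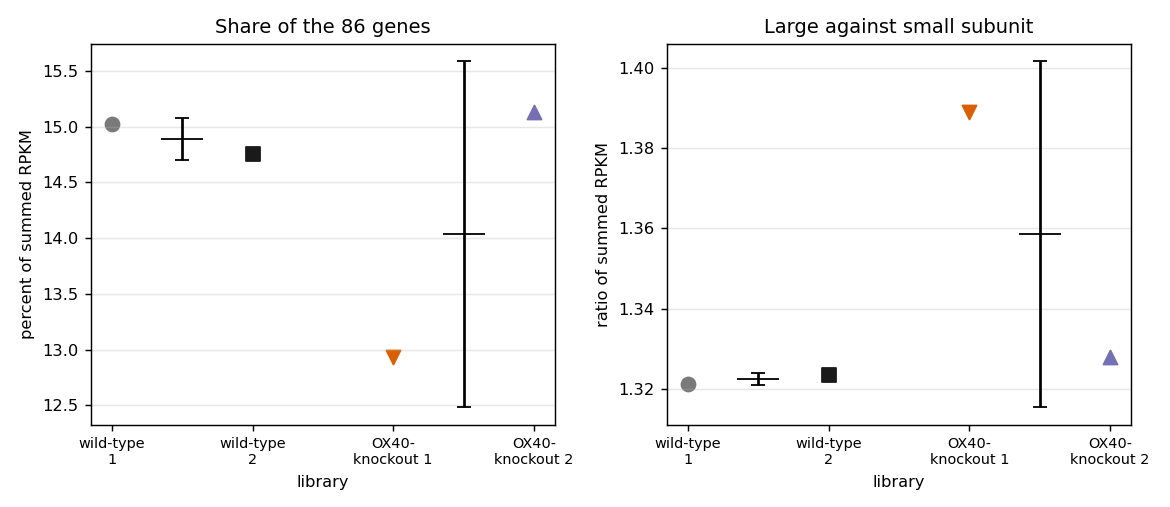
Percent of summed RPKM in the 86 genes (left) and ratio of summed large-subunit to summed small-subunit RPKM (right), 1 mark per library, with the mean and SD of each group beside its marks. OX40-knockout 1 has the lowest share (12.9%) and the highest ratio (1.39), and OX40-knockout 2 lies with the wild-type libraries.

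Between the genotypes no ribosomal protein gene passed the test. With limma on log2(RPKM + 1) and Benjamini-Hochberg adjustment over the 11625 genes whose mean reached 1 RPKM, 0 of the 83 tested ribosomal protein genes had an adjusted p under 0.05, as did 0 of all genes (0.0%). The other 3 of the 86, Rpl3l, Rpl10l and Rpl39l, were below the minimum. At an unadjusted p under 0.05, 0 of 83 were lower in OX40-knockout, against 0.843% of all genes tested, and 1, Rpl24, was higher, against 0.551% of all. The 2 genotype groups did not overlap in 9 of 83 genes with lower values in OX40-knockout (17.8% of all genes tested) and in 3 with higher values (8.66% of all). Those 9 were Rpl5, Rpl11, Rpl22, Rplp2, Rps3, Rps9, Rps13, Rps16 and Rps23. The members' share of 10.8% lay below that of all genes.

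The means still leaned to one side. The mean was lower in OX40-knockout for 74 of the 83 genes, 41 of 49 in the large and 33 of 34 in the small subunit. Of all genes tested, 6574 of 11625 had a lower mean. The median log2 difference, knockout minus wild-type, was -0.10 for large-subunit genes and -0.13 for small-subunit genes, and -0.03 over all genes tested. These medians rested on OX40-knockout 1. Without that library the medians were 0.05 and 0.04 and 23 of 83 genes were lower, and without OX40-knockout 2 they were -0.27 and -0.30 and 76 of 83 were lower. No ribosomal protein gene passed the adjusted threshold in either fit. At an unadjusted p under 0.05, 5 were higher without OX40-knockout 1 (1.69% of all genes) and 56 were lower without OX40-knockout 2 (16.6% of all genes). In each of these fits the lone knockout library is assumed to vary as the wild-type libraries do.

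Rpl22 had the lowest p among the genes with a lower mean. It encodes an RNA-binding protein of the large subunit that early αβ T cells need for their development, although mice without it are viable. It was at 425 and 402 RPKM in wild-type and at 289 and 377 RPKM in OX40-knockout 1 and 2, so both knockout libraries lay below both wild-type libraries. Its log2 difference was -0.32 with a standard error of 0.16 (limma, adjusted p = 0.975), and it was -0.13 without OX40-knockout 1 and -0.51 without OX40-knockout 2. Rpl5 and Rpl11 carry the 5S rRNA into the large subunit and bind Mdm2 when free. Rpl5 was at 1338, 1282, 1066 and 1243 RPKM and Rpl11 at 1517, 1446, 1312 and 1437 RPKM. In both genes the knockout values lay under the wild-type values, with log2 differences of -0.19 ± 0.14 (SE) and -0.11 ± 0.13. Without OX40-knockout 1 the Rpl5 difference was -0.08, and without OX40-knockout 2 it was -0.30.

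Rps13 and Rps23, of the small subunit, and Rplp2, of the acidic stalk, came next by p among the lower genes whose groups did not overlap. Rps13 was at 1111, 1096, 886 and 1090 RPKM. Rps23, a protein of the decoding centre, was at 1456, 1442, 1187 and 1417 RPKM. Rplp2 was at 1177, 1154, 985 and 1143 RPKM, and its stalk partner Rplp1 at 2433, 2424, 2186 and 2477 RPKM. In Rps13, Rps23 and Rplp2 OX40-knockout 2 lay just under the lower wild-type library and OX40-knockout 1 far under it, while in Rplp1 OX40-knockout 2 was the highest library. The log2 differences of Rps13, Rps23 and Rplp2 were -0.02, -0.03 and -0.03 without OX40-knockout 1 and -0.32, -0.29 and -0.24 without OX40-knockout 2. In the other direction, Rpl24 had a log2 difference of 0.68 ± 0.20 (SE) at the few reads given above, Rplp0 one of 0.10 ± 0.14 (0.06 without OX40-knockout 1) and Rpl13a one of 0.06 ± 0.13. These 8 genes (Rpl22, Rpl5, Rps13, Rps23, Rplp2, Rpl24, Rplp0 and Rpl13a) all had an adjusted p of 0.975 (limma).

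Both subunits were low together in OX40-knockout 1. On the log2(RPKM + 1) scale the median difference from the mean of the other 3 libraries was -0.27 for large-subunit genes and -0.31 for small-subunit genes. Over all genes tested it was -0.03. In the other libraries the medians were 0.09 and 0.10 (wild-type 1), 0.07 and 0.08 (wild-type 2), and 0.12 and 0.13 (OX40-knockout 2). These are raised in part by the low values of OX40-knockout 1, which enter the mean they are taken from. The lowest of the 4 values was in OX40-knockout 1 for 71 of 83 genes (85.5%), against 42.6% of all genes tested. It was in OX40-knockout 2 for 7, and OX40-knockout 2 was the highest library for 50 of 83.

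**Figure D3:**
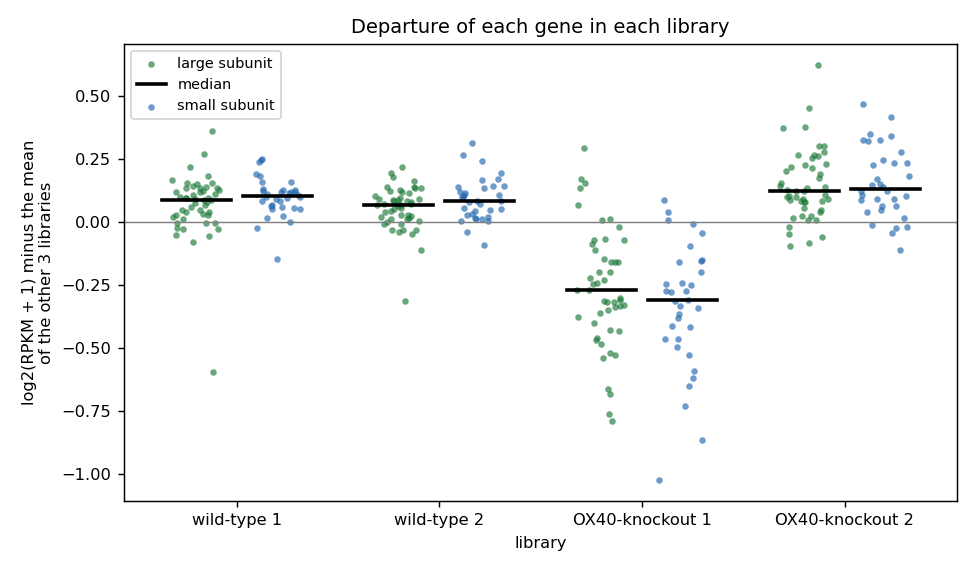
Each dot is a tested gene, placed by log2(RPKM + 1) in a library minus the mean of the other 3, for the large (49 genes) and small subunit (34 genes), with bars at the medians. The dots of OX40-knockout 1 reach from -1.03 to 0.29 and lie mostly under 0, with medians of -0.27 and -0.31.

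The ratio of the subunits moved less than their levels. Summed large-subunit RPKM was 1.32 times summed small-subunit RPKM in both wild-type libraries, 1.39 times in OX40-knockout 1 and 1.33 times in OX40-knockout 2. The group means were 1.32 ± 0.00149 (SD, n = 2) and 1.36 ± 0.0431 (SD, n = 2), and the groups did not overlap. The higher knockout mean came mainly from OX40-knockout 1, and the excess rested in part on Rpl13a and Rplp0, the genes with the most RPKM. Without these genes the ratios were 1.18, 1.18, 1.20 and 1.18. Without Rps27rt, of the small subunit, they were 1.38, 1.38, 1.42 and 1.39. Without the 3 highest genes of each subunit they were 1.356, 1.344, 1.417 and 1.343, and the groups overlapped. Among genes with a coding sequence under 400 bases (18 large, 12 small) they were 1.35, 1.35, 1.51 and 1.33, and among longer genes 1.31, 1.31, 1.35 and 1.33. Per gene, the mean of the 46 core large-subunit genes was 0.921, 0.925, 0.954 and 0.930 of the mean of the 31 core small-subunit genes. By the median over genes in place of the sum, the log2 ratio was lower in OX40-knockout by 0.02 and not higher. The medians were 1204, 1179, 954 and 1270 RPKM over core large-subunit genes and 1384, 1354, 1156 and 1361 RPKM over core small-subunit genes. By these medians the ratio was lowest in OX40-knockout 1 and highest in OX40-knockout 2. The order of the libraries thus depended on the summary used.

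Genes with short coding sequences were lowest in OX40-knockout 1. The 27 tested genes with coding sequences of 75 to 390 bases had a median log2 difference from the other 3 libraries of -0.52. The 27 genes of 396 to 552 bases had a median of -0.27, and the 28 genes of 564 to 1257 bases one of -0.20. OX40-knockout 2 had the opposite order, with medians of 0.26, 0.12 and 0.08. The medians were above 0 in wild-type 1 (0.133, 0.082 and 0.082) and wild-type 2 (0.134, 0.081 and 0.025) as well. Each difference is taken from the mean of the other libraries, so low values in OX40-knockout 1 by themselves raise the differences of the rest. Over 82 genes Pearson's r of the OX40-knockout 1 difference with log2 coding length was 0.57, and with mean transcript GC content 0.44. These are correlations across genes of the same library, which are not independent replicates. After correction of each library for GC content the median difference of OX40-knockout 1 was -0.27, after correction for transcript length -0.24, after both -0.20, and after quantile normalization -0.10, against -0.30 as deposited. The part of length, GC content and RNA quality in this library was not tested further.

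**Figure D4:**
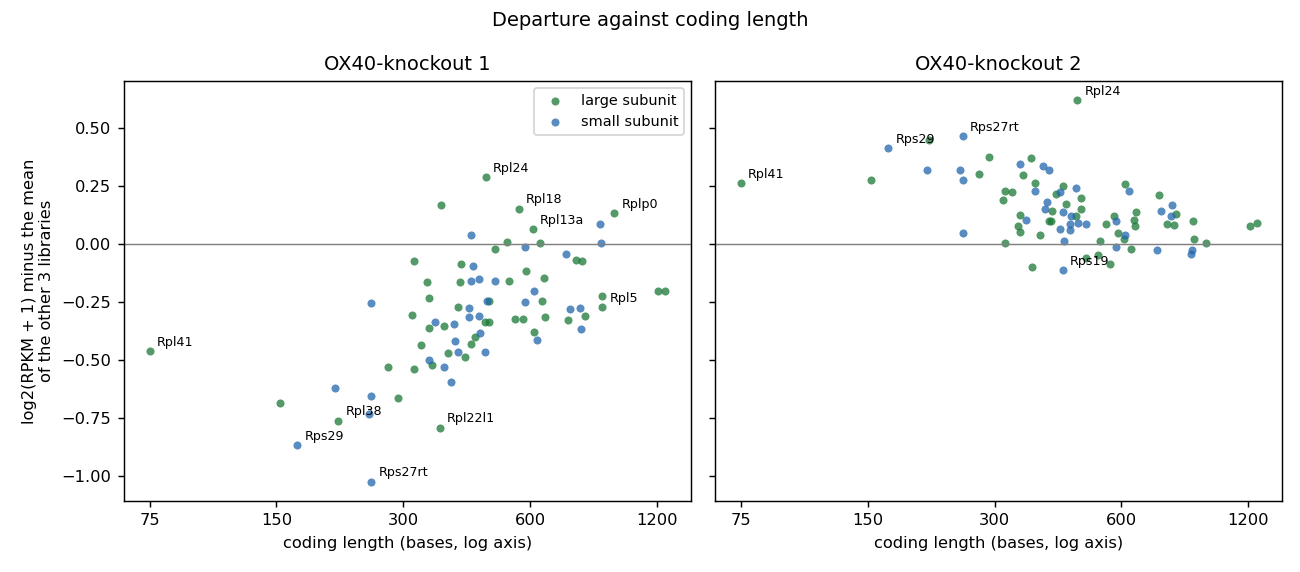
Difference of OX40-knockout 1 (left) and OX40-knockout 2 (right) from the mean of the other 3 libraries on the log2(RPKM + 1) scale against coding length (bases, log axis), 1 dot per tested gene. The shortest genes lie lowest in OX40-knockout 1 (median -0.52 up to 390 bases) and highest in OX40-knockout 2 (0.26). Low values in OX40-knockout 1 by themselves raise the differences of OX40-knockout 2.

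The 4 genes under 60% of the other 3 libraries in OX40-knockout 1 all had coding sequences under 400 bases. Rps27rt was at 49.1% of their level, Rps29 at 54.7%, Rpl22l1 at 57.5% and Rpl38 at 58.8%. Rps29, a zinc-binding protein of the small-subunit head, was at 862 and 898 RPKM in wild-type, 498 RPKM in OX40-knockout 1 and 970 RPKM in OX40-knockout 2. Rpl38, which is known from mice with altered Hox mRNA translation, was at 1148, 1175, 720 and 1353 RPKM. For both genes the knockout libraries were the lowest and the highest of the 4. Rpl39, a very short protein at the peptide exit tunnel, was at 1032, 1021, 646 and 1064 RPKM. Rps21 was at 1263, 1212, 760 and 1315 RPKM. In all, 36 of the 83 genes were under 80% of the other libraries in OX40-knockout 1, 37 were between 80% and 100%, and 10 were at or above 100%.

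Some genes did not share the low values of OX40-knockout 1. Besides Rpl13a, Rplp0, Rps2, Rpl24 and Rpl35 these included Rpl18, a core large-subunit protein, at 1357, 1349, 1491 and 1318 RPKM. Rps19, the gene most often mutated in Diamond-Blackfan anaemia, was at 816, 793, 806 and 745 RPKM and lowest in OX40-knockout 2. Rpsa, also known as the laminin receptor, was at 1293, 1230, 1260 and 1241 RPKM. Rps3, which has roles in DNA repair and in NF-kB complexes, shared them only slightly, at 978, 954, 927 and 937 RPKM. It was lowest in OX40-knockout 1, at 97.0% of the other 3 libraries.

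Other core genes with known roles of their own followed the majority. Rpl3, a protein near the peptidyl transferase centre, was at 1831, 1746, 1560 and 1806 RPKM, and Rpl10, which completes the large subunit in the cytoplasm, at 1781, 1773, 1508 and 1811 RPKM. Rps4x, encoded on the X chromosome, was at 1775, 1736, 1463 and 1797 RPKM. Rps26, another gene of Diamond-Blackfan anaemia, was at 1986, 1922, 1449 and 2249 RPKM. In each of these OX40-knockout 1 was lowest. Rps27a, made as a fusion with ubiquitin, was at 920, 915, 679 and 982 RPKM, and Rps20 at 437, 432, 343 and 432 RPKM. Rps19bp1, no subunit, was at 24.1, 29.7, 22.0 and 29.5 RPKM. Rps4l is a transcribed pseudogene in the annotation and so outside the rule, with 2.70, 4.17, 2.67 and 6.11 RPKM.

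Genes with and without a pyrimidine run at the start had close medians, and no test was made of the difference. The median difference of OX40-knockout 1 from the other 3 libraries was -0.28 for the 21 tested genes with a run of at least 8 at the start and -0.29 for the 42 without. The median levels of these groups were 1146 and 1132 RPKM. For the 24 tested genes with CCGGAAG in the window the median difference was -0.37, and for the 39 without it was -0.27. Rpl38 and Rpl35, both with a run and CCGGAAG, lay on opposite sides of 0 in OX40-knockout 1.

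The paralogs differed widely in level. Rpl22l1, which can take the place of Rpl22 and whose mRNA Rpl22 is known to repress, was at 405, 347, 222 and 408 RPKM. It was 0.952, 0.863, 0.769 and 1.08 times the level of Rpl22. The ratio was lowest in OX40-knockout 1 and highest in OX40-knockout 2, so the wild-type values lay between those of the knockout. Rps27l, a p53 target in its family, was at 301, 286, 189 and 307 RPKM. Rpl36al was at 362, 350, 336 and 351 RPKM, against 716, 699, 492 and 734 RPKM for Rpl36a. Rpl7l1, which acts in the nucleolus, was at 36.1, 38.7, 30.4 and 40.6 RPKM, under 4% of the summed level of Rpl7 and itself in each library. The 5 tested paralogs were all lowest in OX40-knockout 1, with a median difference from the other 3 libraries of -0.65.

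**Figure D5:**
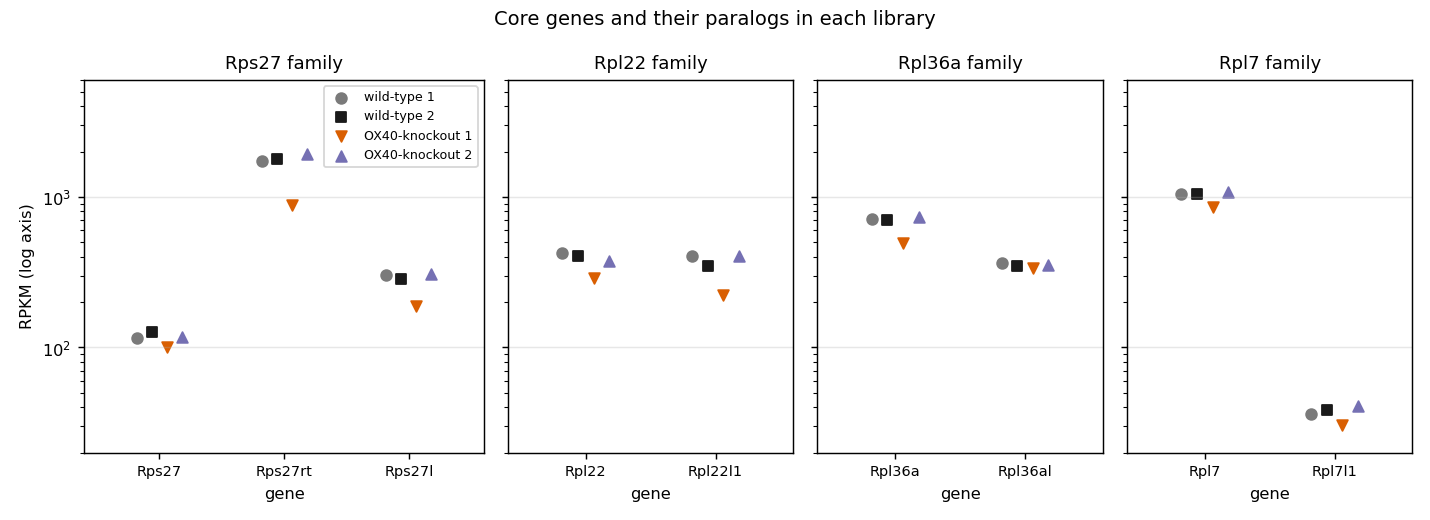
RPKM (log axis) of core genes and their paralogs in each library. Rps27rt lies far above Rps27, Rpl22 and Rpl22l1 lie close together, and OX40-knockout 1 is the lowest mark for every gene shown.

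The paralogs known from testis or muscle were at or near 0. Rpl10l, a testis gene, was listed at 0 in all libraries, where 3 reads would have given at most 0.132 RPKM. Rpl39l, also of testis, was at 0.953, 0.181, 0.465 and 0.849 RPKM from 15, 3, 7 and 13 reads. Rpl3l, a muscle gene, had 1 read in each library. For Rpl39l the exact 95% Poisson intervals of wild-type 1 (0.533 to 1.57 RPKM) and wild-type 2 (0.0374 to 0.530 RPKM) narrowly missed each other. The intervals are not corrected for the choice among genes and pairs of libraries, so a difference beyond counting error was not tested.

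Genes around the ribosome showed no change that passed the test. Among subunit genes outside the rule, Fau was at 1474, 1506, 1560 and 1456 RPKM and Rack1 at 1046, 1030, 971 and 1026 RPKM. The list of translation factors with TOP mRNAs (14 genes) had 0 genes called, a median log2 difference of -0.08 and 12 of 14 genes lowest in OX40-knockout 1. Eif3e, an initiation factor subunit, had its lowest p, with 199, 193, 155 and 191 RPKM. It was followed by the nucleolar chaperone Npm1, at 1253, 1211, 915 and 1296 RPKM, and by the elongation factor subunit Eef1d, at 147, 162, 131 and 154 RPKM.

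In the list of ribosome assembly and rRNA synthesis (40 tested genes) 0 were called, the median log2 difference was -0.07 and 33 of 40 were lowest in OX40-knockout 1. Dkc1, the pseudouridine synthase of rRNA, was at 122, 131, 81.4 and 124 RPKM. Nop14, of small-subunit assembly, was at 40.3, 42.3, 33.7 and 39.8 RPKM, and Gnl3, nucleostemin, at 41.9, 45.2, 33.2 and 43.5 RPKM. The snoRNA host genes (7 tested, 0 called) had a median of -0.08. Their lowest p-values were those of Gas5 (234, 245, 200 and 231 RPKM), Zfas1 (56.6, 54.2, 48.8 and 53.8 RPKM) and Snhg5 (40.4, 41.2, 33.8 and 41.9 RPKM). In all 6 genes OX40-knockout 1 was lowest.

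The genes that control ribosome production had no common direction. In the MYC and mTORC1 list (17 tested, 0 called) 7 had a lower and 10 a higher mean in OX40-knockout, with a median log2 difference of 0.03. Eif4ebp1, the translation repressor that mTORC1 inactivates, was at 149, 131, 186 and 142 RPKM. Rps6kb1, the S6 kinase, was at 35.3, 36.1, 28.3 and 35.3 RPKM, and the cap-binding protein Eif4e at 39.1, 39.3, 27.1 and 41.0 RPKM. The list for free ribosomal proteins and p53 (10 tested, 0 called) had a median of -0.02. Of its genes, 6 of 10 were highest in OX40-knockout 1, against 4284 of 11625 of all genes tested, and its median difference of OX40-knockout 1 from the other libraries was 0.36. Mdm4, an inhibitor of p53, was at 135, 145, 115 and 125 RPKM, with groups that did not overlap. Ccng1, a p53 target, was at 156, 145, 107 and 140 RPKM, and Cdkn1a, the cell cycle inhibitor p21, at 324, 275, 399 and 298 RPKM. Adjusted p-values of the genes named from these lists and of Fau and Rack1 lay from 0.975 to 0.988 (limma).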

How the data were processed

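The authors deposited 1 table of RPKM values, 1 column per library, for 35275 Ensembl genes. Its header names no unit. Per the submitters' processing notes, Bowtie 0.12.2 and the build mm8 were used, with the counting tool and annotation not stated. Library totals were recovered from genes with a single transcript, whose values were whole multiples of 1 read (tolerance 0.02) for 82.6% to 83.2% of such genes. Reads of the ribosomal protein genes came from ratios between libraries and are lower bounds, since a common factor may be missing. Symbols, types, coding lengths, GC content and exon overlaps came from GENCODE vM21 (34490 IDs named).

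The test was limma 3.58.1 (R 4.3.3) on log2(RPKM + 1), with empirical Bayes and a mean-variance trend, for the 11625 genes whose mean over the 4 libraries reached 1 RPKM. Benjamini-Hochberg adjustment had a threshold of 0.05, and the script was tested on simulated data first. Where RefSeq gave several promoter windows of a symbol, the first was used. Copies were sought with BLAST 2.17.0 and overlaps with bedtools 2.31.1. The rest was done in Python 3.11.15 with pandas 2.3.3 and numpy 2.4.6. The genes named are, in each subunit, the 3 highest and 3 lowest above 0 by mean RPKM, the 5 of lowest p per direction whose groups do not overlap, the 3 farthest above and below their mean in each library, and a list of members with roles of their own. Outside the family they are Tnfrsf4 and the 3 of lowest p in each list. An item withheld for evaluation is not reported here. Rps21, Rps9, Rps16, Rpl12, Rpl23a, Rpl36a, Rpl36al, Rpl7 and Rpl7l1 were added after their values were seen. The members and lists were chosen with earlier results of these data known. Alternatives were another pseudocount, filters, scalings, GC correction, a replicate block and leaving out each library, and, chosen after seeing the data, length correction and other sets of members for the subunit ratio.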

Additional observations from a re-analysis of the deposited data

How the results depend on the processing

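The number of ribosomal protein genes called was 0 under every alternative run. The number of all genes called was 0, and 1 with quantile normalization, 5 with the replicate block, 1 with the replicate block and GC correction, and 1 with length correction (added after seeing the data). Leaving out each library in turn gave 0 to 1 genes called, a median log2 difference of -0.271 to 0.0455 for large-subunit and -0.302 to 0.0391 for small-subunit genes, and 23 to 76 of 83 tested genes with a lower mean. The log2 large-to-small ratio was -0.0176 by the median over members and 0.071 for coding sequences under 400 bases (the latter added after seeing the data), against 0.0385 as reported. The cause of these differences was not tested. The labels do not say what the replicate numbers share, and a shared batch was not tested. Deviations of same-numbered libraries from their group means correlated at 0.469 over all genes and 0.051 over the ribosomal protein genes, and with the replicate block 74 of 83 still had a lower mean and 0 were called. The values of Rpl24, Rpl39l and Rpl3l rest on few reads, and Rpl10l had none.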

Other observations

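The annotation types 6 rows with pseudogene symbols as protein-coding, which the rule leaves out. Of these Rps12-ps3, whose coding sequence is identical to that of Rps12, was at 136, 122, 46.8 and 138 RPKM in wild-type 1 and 2 and OX40-knockout 1 and 2, and Rpl10-ps3 at 9.98, 9.89, 6.55 and 20.6 RPKM. Rpl9-ps6 was at 13.2, 12.3, 5.67 and 16.0 RPKM, and the other 3 were at or near 0. Pseudogene copies of other members, chosen here after their values were seen, included Gm7536, a copy of Rpl27a, at 34.0, 32.8, 16.4 and 37.8 RPKM, and Gm15500, a copy of Rpl5, at 15.3 RPKM in OX40-knockout 1 and 28.9 RPKM in OX40-knockout 2. All 5 of these rows were lowest in OX40-knockout 1 and highest in OX40-knockout 2, but the pattern was not counted over all 434 copies. Of all genes tested, 42.6% were lowest in OX40-knockout 1 and 2250 of 11625 were highest in OX40-knockout 2. Other copies differed. Gm45713, a copy of Rpl13a, was highest in wild-type 1 (61.4, 57.9, 48.6 and 51.6 RPKM). BC004004, a copy of Rpl21, was lowest in wild-type 1 (30.9, 30.9, 31.1 and 33.1 RPKM). Reads of a copy and its parent gene cannot be told apart here where their sequences are identical.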
